A study of Mus musculus with 6 samples.

Results

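The contractile and pericyte genes described here were Acta2, Tagln, Cnn1, Myl9, Tpm1 and Tpm2 (the thin filament and contractile genes), Des, and the pericyte genes Mcam, Rgs5 and Cspg4. They were taken by gene symbol, with earlier results of these data known, and all 10 were found among the 25722 genes in the count tables. RNA sequencing was performed on adherent bone marrow cells of wild-type C57BL/6 mice, which the study calls BMSCs and the labels name BM-MSCs. Cultures given the solvent DMSO served as controls (3 libraries, DMSO 1 to 3) and were compared with cultures given all-trans retinoic acid, labelled ATRA and called RA here (3 libraries, RA 1 to 3). Per the labels, RA was given at 1 μM and both treatments lasted 48 h. The paper's methods state a lower dose and shorter times, and where the labels name 2 biological replicates, 3 libraries of each group were analysed. All 6 cultures shared low-glucose DMEM medium with 20% serum, 5% oxygen and 10 μM of a ROCK inhibitor, so RA and DMSO were compared only with that inhibitor present. No source says which libraries came from separate animals or cultures.

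Contractile genes of smooth muscle encode the actin filament and its partners. Smooth muscle cells, pericytes and activated fibroblasts (myofibroblasts) share many of them, and cultured marrow stromal cells are known to express them as well. Many of these genes are driven by serum response factor (SRF), which binds a short element called the CArG box. SRF's cofactors MRTF-A and MRTF-B are released to the nucleus when actin assembles into filaments. RA acts through nuclear receptors that bind pairs of elements related to AGGTCA. Pericytes, which wrap small vessels, are usually recognised by Rgs5, Cspg4 (the proteoglycan NG2), Mcam (the adhesion molecule CD146), Des and the PDGF receptor β gene Pdgfrb.

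The upstream sequences of Acta2 and Myl9 are shown because, of the 9 genes with a promoter entry in the RefSeq table (build GRCm38.p6, 250 bases before the start site; Tagln had none), they alone held a CArG box or a CArG-like element. A CArG-like element here means a CArG box with 1 G or C in its A/T centre. Capitals mark these elements. In GENCODE M21, 217 of the 250 bases of the Acta2 window lie in a longer first exon, so only each element with its flanks is given, and the Myl9 window stops where the first exon of GENCODE begins.
Acta2, chr19:34255438-34255467, minus strand: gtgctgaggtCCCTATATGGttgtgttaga
Acta2, chr19:34255388-34255417, minus strand: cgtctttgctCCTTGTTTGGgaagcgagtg
Myl9, chr2:156775214-156775419, plus strand: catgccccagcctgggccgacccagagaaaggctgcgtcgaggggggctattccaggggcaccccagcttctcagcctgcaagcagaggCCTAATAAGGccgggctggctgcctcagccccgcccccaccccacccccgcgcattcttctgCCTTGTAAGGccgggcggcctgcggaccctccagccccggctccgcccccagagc

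The Acta2 elements begin at positions -84 and -34 relative to the RefSeq start site, and both are CArG-like. Myl9 held a full CArG box, CCTAATAAGG, beginning at -161 and a CArG-like element, CCTTGTAAGG, at -99. A full CArG box was present in 1 of the 9 windows (11.1%), in 6 of 24 windows of other smooth muscle contractile genes (25.0%; Acta1, Actc1, Cnn2, Ldb3, Myl6 and Vcl) and in 482 of 32851 promoter windows of the table (1.47%). A CArG-like element was present in 2 of the 9 (22.2%) and in 7.24% of all windows. The letters AGGTCA, searched on both strands, were absent from all 9 windows and present in 14.0% of all windows. These matches describe letters in a window only, and no binding was measured here.

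The libraries held between 14737636 and 18511905 counts, so that 3 counts corresponded to 0.160 to 0.210 CPM (counts set to a common depth with TMM scaling). They did not group by treatment. DMSO 2, RA 1 and RA 2 (set 1) stood apart from DMSO 1, DMSO 3 and RA 3 (set 2). The labels give no batch for either set, and the sets were seen in these data earlier, so differences between the sets are given as a description. Of the 25722 genes, 13842 passed the filter on low counts, among them 9 of the 10 genes (all but Cspg4). In the test of RA against DMSO (edgeR's quasi-likelihood test, with calls made where the adjusted p was below 0.05 and the change 1.5-fold or more) 6 of 13842 genes (0.0433%) were called. None of the 9 was among them, 1 of them had an unadjusted p under 0.05 (5.25% of all genes did), and DESeq2 called 0 of them and 136 genes (0.983%) in all.

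The cell type labelled BMSC was checked against marker lists. The 15 mesenchymal stromal markers summed to 2136 to 5760 CPM. Of the stromal surface markers, Thy1 (0 to 7 counts) and Nt5e (2 to 21 counts) were near 0. Eng (472 to 1125 counts), Ly6a (262 to 642), Vcam1 (293 to 990) and Pdgfra (95 to 426) were well detected. The 14 macrophage markers summed to 20660 to 23580 CPM and were detected in all libraries, so macrophage transcripts were present at a high level in cultures labelled BM-MSCs. Among pericyte markers, Kcnj8 (0 to 1 counts) and Abcc9 (5 to 14 counts) were near 0, and Rgs5 and Cspg4 were close to them. Others that stromal cells share were well detected, such as Pdgfrb (861 to 2516 counts) and Notch3 (385 to 820 counts). Endothelial markers summed to 9.09 to 22.6 CPM and skeletal muscle markers to 3.55 to 6.15 CPM.

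**Figure D1:**
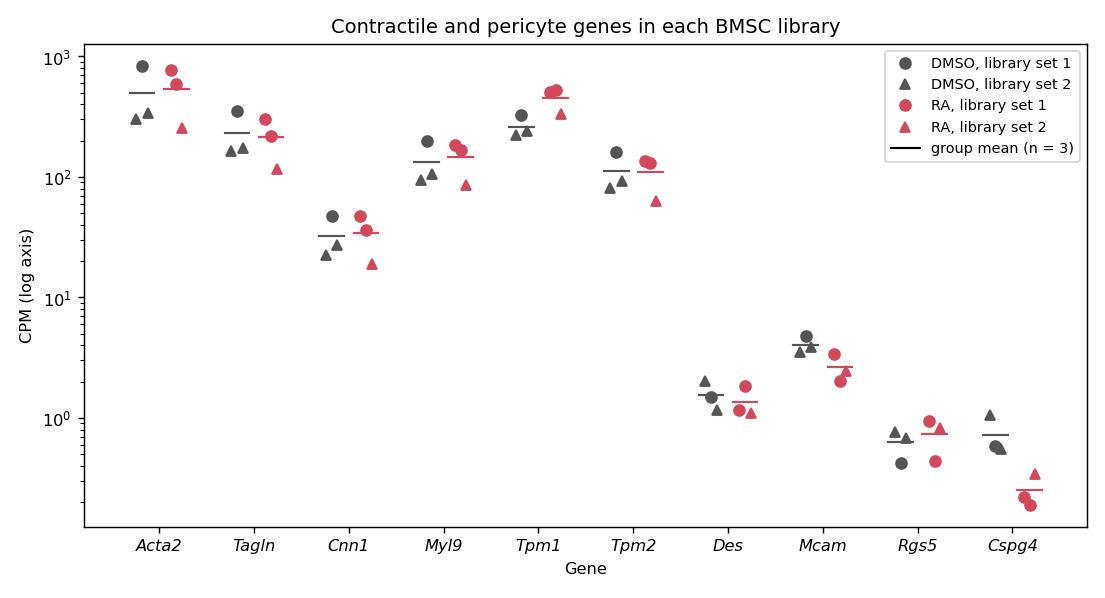
Level of each of the 10 genes in each library, in CPM on a log axis, for DMSO (grey) and RA (red), with circles for library set 1, triangles for set 2 and a line at the group mean (n = 3). Of the contractile genes 5, all but Tpm1, had every circle above every triangle, Tpm1 had all RA libraries above all DMSO libraries, and the 4 genes on the right lay below 5 CPM.

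The genes were expressed at very different levels. Per length (CPM per kilobase of exon), Acta2 had a mean of 235.4 over the 6 libraries (116.8 to 380.1), at the 98.9 percentile of the genes tested. Myl9 (120.1, range 73.2 to 170.4), Tagln (111.6, range 58.6 to 178.7), Tpm1 (55.4, range 34.4 to 81.9) and Tpm2 (38.1, range 21.9 to 55.4) followed. Each of these neighbours overlapped the next in range over the libraries. Cnn1 was lower on the same scale, with a mean of 12.2 (6.91 to 17.5), and its range lay below that of Tpm2. Mcam, at 0.996 (0.606 to 1.43), and Des, at 0.390 (0.291 to 0.541), were more than 10 times lower again. Rgs5 had a mean level per length of 0.150 and Cspg4 of 0.0411, below nearly all genes tested, in the 1.79 and 0.0361 percentiles. Acta2, Myl9, Tagln, Tpm1 and Tpm2 were thus among the abundant transcripts of these cultures, and Cnn1 stood at the 71.7 percentile. Mcam, at the 20.5 percentile, Des, Rgs5 and Cspg4 were among the scarce ones. This does not hold for pericyte genes in general, since Pdgfrb stood at the 79.2 percentile while Kcnj8 and Abcc9 were near 0.

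Acta2 (ENSMUSG00000035783, chr19:34241090-34255590) encodes smooth muscle α-actin, the usual marker of myofibroblasts. It measured 305.6, 834.7 and 341.1 CPM in DMSO 1 to 3 and 767.8, 595.4 and 256.6 CPM in RA 1 to 3. The groups overlapped throughout their range, and the 3 high libraries were those of set 1. Its means were 493.8 ± 295.8 CPM in DMSO and 539.9 ± 260.1 CPM in RA (SD, n = 3), and the log2 fold change was 0.13 (SE 0.52, adjusted p = 0.956, edgeR). A difference of this size was far below the spread between libraries of one group.

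Tagln (chr9:45929619-45936058) encodes transgelin, an actin-binding protein of smooth muscle. It measured 164.4, 355.3 and 173.7 CPM in DMSO 1 to 3 and 303.9, 217.6 and 116.5 CPM in RA 1 to 3, with the same libraries high. The groups overlapped and the log2 fold change was -0.12 (SE 0.43, adjusted p = 0.948, edgeR). In GENCODE M21, 1349 of the 1988 exonic bases of Tagln are shared with Pcsk7 and Gm48529 on the other strand. Whether reads were counted by strand is not given in the sources used here. All libraries together held 4749 counts for Pcsk7 and 501 for Gm48529, fewer than the 6680 counts of Tagln in DMSO 2 alone. How reads in the shared bases were assigned cannot be told from these counts, so the level of Tagln per length is uncertain.

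Cnn1 (chr9:22099216-22109630) encodes calponin 1, which binds actin and restrains myosin. Its CPM was 22.6, 47.8 and 27.4 in DMSO 1 to 3 and 47.3, 36.3 and 18.9 in RA 1 to 3. Myl9 (chr2:156775420-156781658) encodes the regulatory light chain of smooth muscle and non-muscle myosin. Its CPM was 94.6, 198.1 and 106.7 in DMSO 1 to 3 and 184.8, 167.8 and 85.1 in RA 1 to 3. For both genes the groups overlapped and the set 1 libraries were the 3 highest. The log2 fold changes were 0.068 (SE 0.40, adjusted p = 0.971, edgeR) for Cnn1 and 0.13 (SE 0.38, adjusted p = 0.936, edgeR) for Myl9.

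Tpm1 (chr9:67022590-67049406) and Tpm2 (chr4:43514711-43523765) encode tropomyosins, which lie along the actin filament and govern the access of myosin. Both were higher in set 1 in both treatments, and they differed in how RA stood against DMSO. Tpm2 measured 81.5, 161.1 and 93.0 CPM in DMSO 1 to 3 and 135.4, 130.3 and 63.7 CPM in RA 1 to 3. It split by library set like the genes above, with a log2 fold change of -0.027 (SE 0.37, adjusted p = 0.988, edgeR).

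Tpm1 measured 223.0, 324.5 and 239.4 CPM in DMSO 1 to 3 and 508.0, 531.3 and 330.1 CPM in RA 1 to 3. All 3 RA libraries lay above all 3 DMSO libraries, though RA 3 was barely above DMSO 2. Among all genes tested, 5.71% had the RA libraries higher without overlap. The means were 262.3 ± 54.5 CPM in DMSO and 456.5 ± 110.1 CPM in RA (SD, n = 3), and the log2 fold change was 0.80 (SE 0.24), or 1.74-fold. The unadjusted p was 0.0123 and the adjusted p over all genes was 0.720 (edgeR), so that Tpm1 did not pass the test. An exact two-sided permutation test of 3 against 3 libraries cannot go below p = 0.10, and none was used for single genes.

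Des, Mcam, Rgs5 and Cspg4 were measured on few counts. Des and Mcam share exonic bases with genes on the other strand (220 with Gm15179 and 17 with Gm10687). Gm10687 held 417 counts in all libraries together. Des (chr1:75360329-75368579) encodes desmin, the intermediate filament of muscle. It had 29, 28 and 17 counts in DMSO 1 to 3 and 21, 29 and 16 counts in RA 1 to 3. These counts overlapped, and the log2 fold change was -0.19 (SE 0.35, adjusted p = 0.894, edgeR). Rgs5 (chr1:169655501-169695813), a regulator of G protein signalling that is abundant in pericytes, had 11, 8 and 10 counts in DMSO 1 to 3 and 17, 7 and 12 counts in RA 1 to 3. Its log2 fold change of 0.25 (SE 0.42, adjusted p = 0.889, edgeR) was below its error.

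Mcam (chr9:44134469-44142727) had 50, 90 and 56 counts in DMSO 1 to 3 and 61, 32 and 36 counts in RA 1 to 3. On the CPM scale these were 3.50, 4.79 and 3.85 in DMSO and 3.39, 2.03 and 2.46 in RA. All RA libraries lay below all DMSO libraries on that scale, with RA 1 close under DMSO 1, where 6.87% of the genes tested had the RA libraries lower without overlap. Its means were 4.05 ± 0.664 CPM in DMSO and 2.63 ± 0.697 CPM in RA (SD, n = 3). The log2 fold change was -0.62 (SE 0.27), 1.54-fold lower after RA, with an unadjusted p of 0.0592 and an adjusted p of 0.795 (edgeR).

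Cspg4 (chr9:56865033-56899870) had 15, 11 and 8 counts in DMSO 1 to 3 and 4, 3 and 5 counts in RA 1 to 3, or 1.05, 0.585 and 0.550 CPM and 0.222, 0.190 and 0.341 CPM. Every RA library was lower than every DMSO library, as for 6.87% of the genes that passed the filter, which Cspg4 did not. The RA counts were close to the 3 counts taken as the floor here, and Cspg4 was not tested. The summed counts, 34 in DMSO and 12 in RA, gave a ratio of 0.347 per depth (95% exact interval 0.164 to 0.687, covering counting error only). When no filter was applied its log2 fold change was -1.51 (SE 0.55, adjusted p = 0.745, edgeR).

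In both treatments the contractile genes were higher in library set 1. Averaged over DMSO and RA, Acta2 was 2.61-fold higher in set 1 than in set 2, Tagln 2.15-fold, Cnn1 2.05-fold, Myl9 2.02-fold, Tpm2 1.96-fold and Tpm1 1.49-fold. For 5 of the 6 (all but Tpm1) every library of set 1 lay above every library of set 2, as did 23.4% of all genes tested. Among the genes tested, the log2 difference between the sets put Acta2 at the 97.2 percentile and Tpm1 at the 85.5 percentile. The other 4 genes differed less between the sets or in the other direction, and whether they differ from the contractile genes in this was not tested. Des was 1.12-fold and Mcam 1.17-fold higher in set 1, and Rgs5 (0.73-fold) and Cspg4 (0.752-fold) were lower there.

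The stromal markers moved with the same split. They summed to 3077 to 5760 CPM in set 1 and 2136 to 3212 CPM in set 2, and 11 of the 13 stromal markers tested were higher in set 1 in both treatments, with a median log2 difference of 0.85. Of the 14 macrophage markers 2 were higher in set 1 in both treatments, with a median log2 difference of -0.41. In bulk RNA, fewer cells of a type and less RNA per cell cannot be told apart, and the part of the stromal level in the contractile gene levels was not tested.

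**Figure D2:**
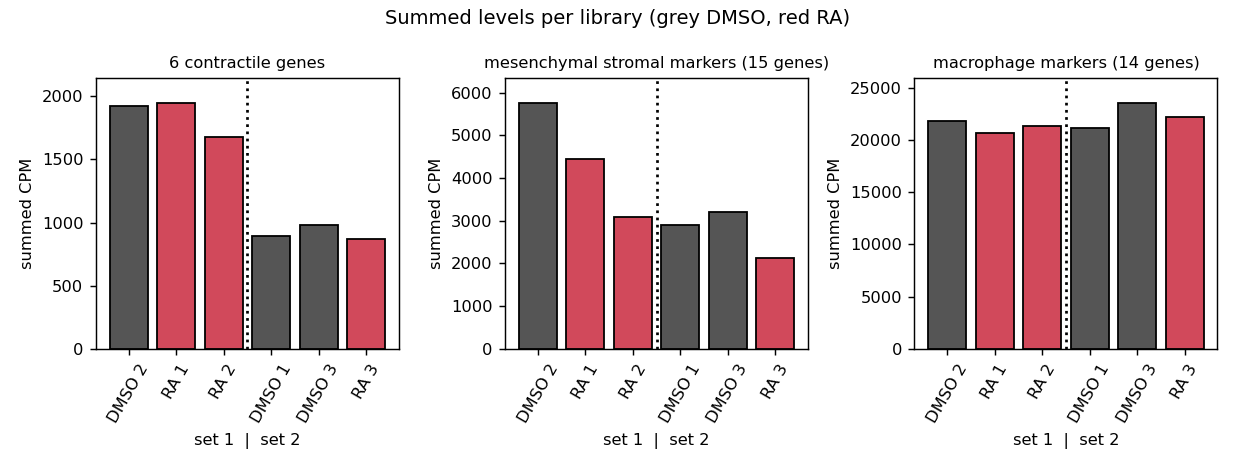
Summed CPM per library of the 6 contractile genes, the 15 mesenchymal stromal markers and the 14 macrophage markers, with DMSO in grey, RA in red and a dotted line between library sets 1 and 2. Stromal markers ranged from 3077 to 5760 CPM in set 1 and from 2136 to 3212 CPM in set 2, and the macrophage sum lay between 20660 and 23580 CPM. Single macrophage markers differed between the sets, with a median log2 difference of -0.41 (set 1 minus set 2).

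RA was next compared with DMSO inside each set, where set 1 had a single DMSO library (1 against 2 RA) and set 2 a single RA library (1 against 2 DMSO). In set 1 the log2 difference of RA from DMSO was -0.30 for Acta2, -0.47 for Tagln, -0.21 for Cnn1, -0.17 for Myl9 and -0.28 for Tpm2. In set 2 it was -0.33 for Acta2, -0.54 for Tagln, -0.39 for Cnn1, -0.24 for Myl9 and -0.45 for Tpm2. All 5 were lower after RA in both sets, and 35.0% of all genes tested were. The summed stromal markers were lower after RA within the sets too, at 4455 and 3077 CPM against 5760 CPM in set 1. In set 2 they were at 2136 CPM against 2909 and 3212 CPM, and their part in these differences was not tested. Much of this sum came from Col1a1, Col1a2, Col3a1 and Sparc (1648, 1390, 661.5 and 1213 CPM in DMSO 2), each lower after RA in both sets. Of the 13 stromal markers tested, 8 were lower after RA in both sets and 3 (Pdgfra, Lepr and Cxcl12) higher in both. Their median log2 difference was -0.47 in set 1 and -0.051 in set 2.

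Tpm1 was higher after RA in both sets, by 0.68 in set 1 and 0.51 in set 2 on the log2 scale, as were 30.9% of genes. Mcam was lower in both (-0.84 and -0.56), and so was Cspg4 (-1.10 and -0.93). Des (-0.019 and -0.46) and Rgs5 (0.50 and 0.15) lay within the spread of their few counts. The sets were read from the expression of these same libraries, so p-values with the set as a covariate are given as a description. With the library set as a covariate, 213 genes (1.54%) were called. Tpm1 was the only one of the 9 among them (0.744% of all genes were called higher). Its log2 fold change was 0.60 (SE 0.081, adjusted p = 0.0167, edgeR). Its fold was 1.51, next to the threshold of 1.5, and with single libraries left out the log2 fold change stayed between 0.53 and 0.68 but the call was lost in 5 of 6 fits (adjusted p between 0.000568 and 0.310, edgeR; it was kept only without RA 1, and without RA 2 it was lost on the fold alone).

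The other contractile genes did not pass in that fit. Tagln had a log2 fold change of -0.49 (SE 0.13, adjusted p = 0.150, edgeR), Tpm2 of -0.36 (SE 0.091, adjusted p = 0.123, edgeR) and Acta2 of -0.31 (SE 0.11, adjusted p = 0.278, edgeR). For Cnn1 it was -0.29 (SE 0.15, adjusted p = 0.389, edgeR), for Myl9 -0.20 (SE 0.087, adjusted p = 0.330, edgeR) and for Mcam -0.71 (SE 0.25, adjusted p = 0.267, edgeR). Of the 9 genes, 5 had an unadjusted p under 0.05 with the set as a covariate, where 15.1% of all genes did. Without RA 1, Tagln was called too, at a log2 fold change of -0.59 (adjusted p = 0.0330, edgeR). Without RA 2, Tagln (-0.39, adjusted p = 0.0167, edgeR) and Tpm2 (-0.36, adjusted p = 0.0294, edgeR) passed the adjusted p and missed the fold. The interaction of treatment and set called 0 of 13842 genes (0.0%) with 2 residual degrees of freedom (edgeR, and 0 by DESeq2), while 518 (3.74%) had an unadjusted p under 0.05. None of the 9 was among these 518, so a difference in the RA effect between the sets was not detected for any of them.

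**Figure D3:**
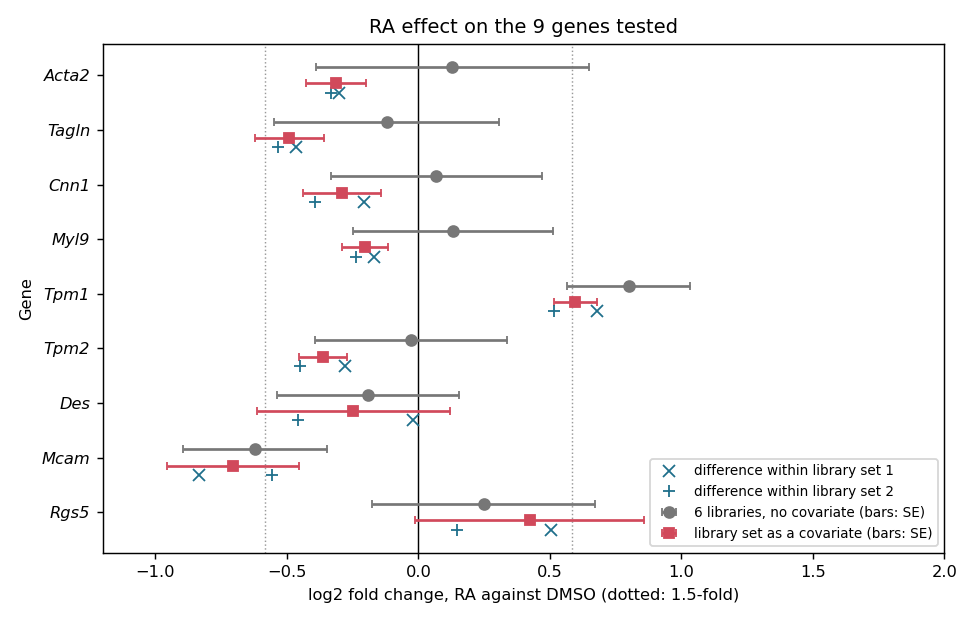
Log2 fold change of RA against DMSO for the 9 genes tested, in the fit of 6 libraries without covariate (grey circles, bars SE), with the library set as a covariate (red squares, bars SE) and as the difference within set 1 (crosses) and set 2 (plus signs), with dotted lines at 1.5-fold. Acta2, Tagln, Cnn1, Myl9 and Tpm2 lay below 0 in both sets and with the covariate, and Tpm1 lay above 0 throughout (0.80 without and 0.60 with the covariate).

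Tpm1 was then set against the other contractile genes of the same library, a comparison chosen after the values were seen. The log2 CPM of Tpm1 minus the mean of Acta2, Tagln, Cnn1, Myl9 and Tpm2 was 1.19, 0.60 and 1.12 in DMSO 1 to 3 and 1.39, 1.74 and 2.06 in RA 1 to 3. The groups did not overlap, and their means were 0.97 ± 0.33 and 1.73 ± 0.34 (SD, n = 3). Relative to the same 5 genes, 3.42% of all genes tested were higher after RA without overlap. Taken singly, Tpm1 stood higher after RA without overlap relative to Tagln, Cnn1, Myl9 and Tpm2. The values relative to Acta2 overlapped (-0.45, -1.36 and -0.51 in DMSO and -0.60, -0.16 and 0.36 in RA). Shares over all genes relative to single genes were not computed. Tagln, Cnn1, Myl9 and Tpm2 vary closely together, so these single comparisons largely repeat each other. For the tropomyosin pair, the ratio of Tpm1 to Tpm2 counts was 2.74, 2.01 and 2.57 in DMSO 1 to 3 and 3.75, 4.08 and 5.19 in RA 1 to 3. Every RA library thus held more Tpm1 per Tpm2 count than any DMSO library, and no share over all genes was computed for this ratio. Both tropomyosin genes give several isoforms, which counts per gene do not separate.

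**Figure D4:**
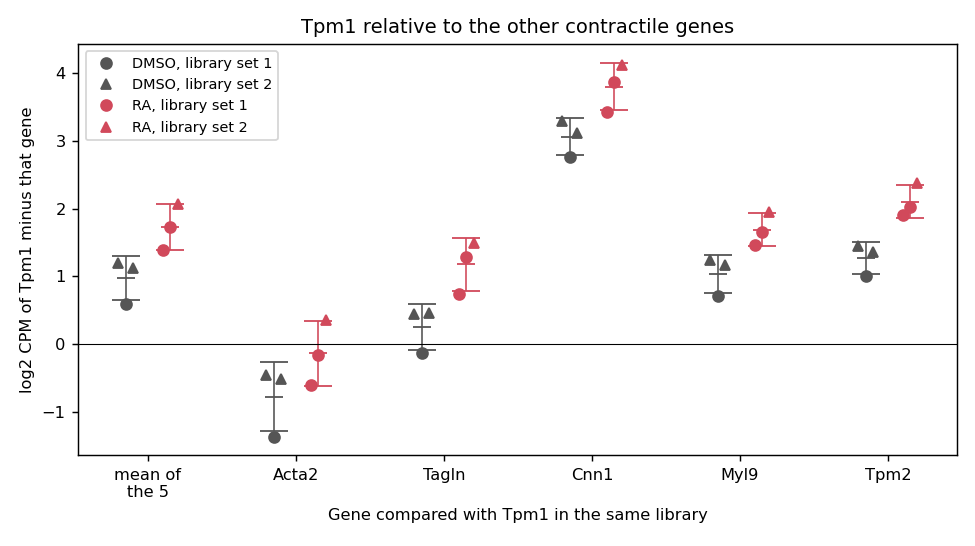
Log2 CPM of Tpm1 minus that of each other contractile gene, and minus their mean, in each library (DMSO grey, RA red, circles for library set 1, triangles for set 2, lines and bars for the mean and SD, n = 3). Against the mean of the 5 genes the DMSO libraries ranged from 0.60 to 1.19 and the RA libraries from 1.39 to 2.06.

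The other contractile genes varied together. Measured against the mean of the other 4 (Tpm1 left out), Tagln was lower after RA without overlap, with values of 0.94, 0.91 and 0.82 in DMSO 1 to 3 and 0.81, 0.56 and 0.70 in RA 1 to 3. Relative to the mean of all 5 genes, 1.47% of the genes tested were lower without overlap. Acta2, Cnn1, Myl9 and Tpm2 overlapped between the groups on that scale. Over the 6 libraries, Pearson's r of log2 CPM among the 5 genes lay between 0.950 and 0.996 in 10 pairs, and between Tpm1 and each of the 5 it lay between 0.433 and 0.669. Since the libraries fall into the 2 sets, these coefficients include that split, and they are given without a test. Of the 9438 genes compared, those closest to Acta2 by the same measure, leaving out the 10 genes themselves, were Nars (0.998), Nop16 (0.997), Loxl2 (0.995), Ttc39b (0.995) and Metap1 (0.995). Loxl2, a lysyl oxidase of the collagen matrix, measured 146.2, 502.1 and 177.2 CPM in DMSO 1 to 3 and 445.0, 336.6 and 142.7 CPM in RA 1 to 3.

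Related genes were followed in lists written from general knowledge. Of 28 other smooth muscle contractile genes 27 were tested, 14 had a log2 fold change above 0 and 13 below, and the median was 0.062 beside -0.018 for all genes. None was called (edgeR), and 1 had an unadjusted p under 0.05. The smallest p belonged to Zyx, which encodes the focal adhesion protein zyxin, at 202.0, 165.9 and 167.2 CPM in DMSO 1 to 3 and 126.8, 123.7 and 157.5 CPM in RA 1 to 3 (log2 fold change -0.39, adjusted p = 0.795, edgeR). Itga8, an integrin subunit, came next with a log2 fold change of 0.48 (adjusted p = 0.795, edgeR). As among the contractile genes above, 23 of the 27 were higher in set 1 in both treatments (39.3% of all genes were), and 19 were lower after RA within both sets, beside 35.0% of all genes and 8 of the 13 stromal markers. The part of the stromal level in this was not tested. With the set as a covariate 23 of the 27 fold changes were below 0, with a median of -0.20 beside -0.0041 for all genes, and again none was called. The smallest adjusted p in that fit was 0.0502 (edgeR), for Lmod1, which encodes a leiomodin.

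The next list held genes of the CCN family and of myofibroblast activation. Col1a1 and Col3a1 of this list are also among the stromal markers. Of the 14 tested, 12 had a log2 fold change below 0 without the covariate (median -0.22) and 13 with it (median -0.57), and 13 were lower within both sets, beside 35.0% of all genes and 8 of the 13 stromal markers, whose part in these values was not tested. Without the covariate none was called (edgeR), and 1 had an unadjusted p under 0.05. With the covariate 3 were called lower, where 0.795% of all genes were, among them Thbs1 (thrombospondin 1) and Ccn1, a matricellular target of SRF and YAP. Thbs1 measured 1210, 2367 and 1323 CPM in DMSO 1 to 3 and 1561, 1281 and 754.9 CPM in RA 1 to 3, and its groups overlapped. With the covariate Thbs1 had a log2 fold change of -0.74 (adjusted p = 0.0167, edgeR) and Ccn1 of -0.73 (adjusted p = 0.0219, edgeR). Above 0 without the covariate were Ccn2, a CCN family gene (log2 fold change 0.15), and Fap, the fibroblast activation protein. Fap was also above 0 with the covariate, with 24, 19 and 32 counts in DMSO 1 to 3 and 63, 65 and 55 counts in RA 1 to 3. Its groups did not overlap, where 5.71% of all genes tested had the RA libraries higher without overlap. Its log2 fold change was 1.22 (unadjusted p = 0.00719, adjusted p = 0.572, edgeR).

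Of the 21 other pericyte genes 19 were in the tables and 14 were tested. Their log2 fold changes fell on both sides (8 above and 6 below 0, median 0.064), and none was called without the covariate (edgeR), where 3 had an unadjusted p under 0.05 beside 5.25% of all genes. With the covariate 2 were called, beside 1.54% of all genes. Cd248 (endosialin), a surface protein of stromal cells and pericytes, measured 37.0, 52.1 and 41.3 CPM in DMSO 1 to 3 and 23.2, 17.1 and 15.9 CPM in RA 1 to 3. All RA libraries were lower, as for 6.87% of all genes tested. The log2 fold change was -1.21 (SE 0.21, adjusted p = 0.233, edgeR) without and -1.33 (adjusted p = 0.00636, edgeR) with the covariate. Rgs4, a relative of Rgs5, had 3, 8 and 1 counts in DMSO 1 to 3 and 88, 34 and 21 counts in RA 1 to 3. It was higher in every RA library, as were 5.71% of all genes tested, and its DMSO counts were at or near the floor. The log2 fold change was 3.49 (SE 0.70, adjusted p = 0.327, edgeR) without and 3.13 (adjusted p = 0.0331, edgeR) with the covariate. In the same libraries Rgs5 did not differ beyond its spread. All 5 calls of these lists were lost when DMSO 1, DMSO 2, DMSO 3 or RA 3 was left out of the fit with the covariate.

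**Figure D5:**
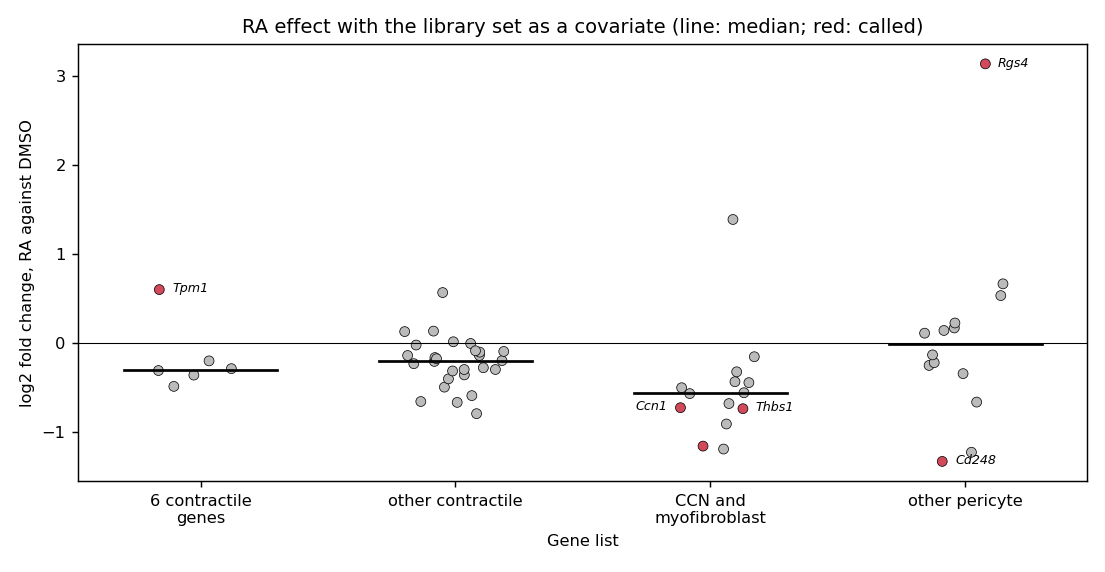
Log2 fold change of RA against DMSO with the library set as a covariate for the genes tested in each list, 1 point per gene, with a line at the median, called genes in red and those described here named. The medians were -0.30 for the 6 contractile genes, -0.20 for the other contractile genes, -0.57 for CCN and myofibroblast genes and -0.015 for other pericyte genes.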

How the data were processed

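RNA was sequenced from mouse BMSCs, 3 libraries with DMSO and 3 with RA. The authors deposited unnormalized read counts per gene in a separate table for each library. The submitters' processing notes name Bowtie2 2.2.3 and the build mm10, the counting program and strand setting are not given in the sources used here, and 25706 of 25722 gene IDs matched GENCODE M21 (GRCm38), which gave coordinates and exon lengths. Date-like entries stood in place of 24 gene symbols and were restored from the IDs.

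The counts were tested in R 4.3.3 with edgeR 4.0.16 (TMM scaling, filterByExpr with a minimum count of 10, quasi-likelihood F test, Benjamini-Hochberg adjustment over 13842 genes), without covariates. Calls needed an adjusted p under 0.05 and at least a 1.5-fold change, and standard errors came from the fold change and F statistic. A prior count of 2 was added for log2 CPM. Alternatives were DESeq2 1.42.0, other scalings, filters and thresholds, a replicate block, the library set as a covariate, and each library left out. The library set was read from these data and not from a label. Leaving libraries out of the fit with the covariate was chosen after seeing the data.

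Named were all 10 genes, and per list the 2 genes with the smallest unadjusted p and any called with or without the covariate. The 5 other genes of at least 3 log2 CPM closest to Acta2 by Pearson's r were named too. Kcnj8, Abcc9, Pdgfrb, Notch3, Ccn2, Lmod1, the single stromal markers and the ratios to Tpm1 and Tagln were chosen after their values were seen. Some list genes are not reported here. The members and lists were chosen with earlier results of these data known. Replicates came from the labels, and the p-values measure only the spread between these libraries, which may be technical. Replicates differed by a chi-square of 4.56 to 83.1 per degree of freedom and were all kept. Depth was 14737636 to 18511905 counts per library, and intervals cover counting error only.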

Additional observations from a re-analysis of the deposited data

How the results depend on the processing

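Of the genes described, none was called without a covariate, under any scaling, filter, test or left-out library, except that Tpm1 passed an unadjusted p under 0.05 with 1.5-fold (1 gene) and was called once the library set entered as a covariate (1 gene). Leaving out libraries gave 0 calls each time without that covariate and 0 to 2 with it. The related lists went from 0 calls to 2 with DESeq2, 2 with the likelihood ratio test, 5 with the covariate and 4 at an unadjusted p, and to between 0 and 14 when libraries were left out of the covariate fit. Over all genes, 6 calls became 136 with DESeq2, 134 with the likelihood ratio test, 20 without a filter, 213 with the covariate and 491 at an unadjusted p. With a library left out they were 0 to 6 without and 36 to 420 with the covariate. The interaction with the set called 161 genes without a filter, none of them among those described. The cause of these shifts was not tested.

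Directions turned for genes near 0. With the covariate Acta2 became -0.31, Cnn1 -0.29 and Myl9 -0.20, and with scaling by library size only Tpm2 became 0.017. Leaving out 1 library gave log2 fold changes from -0.19 to 0.75 for Acta2, -0.45 to 0.34 for Tagln, -0.22 to 0.47 for Cnn1, -0.065 to 0.55 for Myl9, -0.21 to 0.35 for Tpm2 and -0.46 to 0.033 for Des, whereas Tpm1 (0.68 to 1.00), Mcam (-0.83 to -0.47) and Rgs5 (0.031 to 0.50) kept their sign. Scaling moved the median of all genes from -0.018 to at most 0.025. Deviations from the group means correlated at r of -0.51, 0.343 and 0.572 for same-numbered libraries, and at 0.653 for DMSO 2 with RA 1. The 2 library sets cut across the numbers, so this check cannot tell whether the numbers pair the samples. A replicate block gave 4 calls over all genes and 0 among those described. The low counts of Des, Rgs5 and Cspg4, at most 29 in a library, limit what could be detected for them.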
